A study of Rattus norvegicus with 13 samples.

Results

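The genes described here are those of the proteasome, measured in midbrain RNA of rats given methamphetamine (METH), from tissue holding the substantia nigra with the ventral tegmental area (SN/VTA). They were taken by gene symbol from the annotation of the array probes, as the Psma, Psmb, Psmc and Psmd genes without the inducible Psmb8, Psmb9 and Psmb10. This rule gave 35 genes of the 13337 named on the array, each with 1 probe. Of these, 16 belong by name to the core particle (Psma1 to Psma8, Psmb1 to Psmb7 and Psmb11) and 19 to the regulatory particle (Psmc1 to Psmc6, Psmc3ip, Psmd1 to Psmd9, Psmd11, Psmd12 and Psmd13). All 35 could be tested, and 34 of them were above the lower limit of the deposited values on all 13 arrays, Psma8 being the exception.

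The proteasome is the barrel-shaped protease that degrades ubiquitin-tagged proteins in the cytosol and nucleus. Its core particle is a stack of rings built from alpha subunits (Psma genes), which form the outer rings and the gate, and beta subunits (Psmb genes), which form the inner rings and carry the catalytic sites. The regulatory particle caps the core: a ring of ATPases (Psmc genes) unfolds substrates and feeds them in, while non-ATPase subunits (Psmd genes) bind ubiquitin chains, hold the base together or form the lid. In dopamine neurons the system is studied because blocking it leads to accumulation of damaged proteins. The symbol rule also took in genes that are not subunits of the mature particle. Psmd5 and Psmd9 are chaperones that help to assemble the ATPase base, and Psmc3ip is a protein of meiotic recombination named for an interaction with a proteasome ATPase. Psma8 and Psmb11 are tissue-restricted subunits, of the testis and of the thymus.

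The animals were male Sprague-Dawley rats of 8 weeks and 330 to 370 g. They were given escalating METH of 0.5 to 2.5 mg/kg, or saline, over 3 weeks, and 72 h later a challenge of 8 injections at 1 h intervals, of METH at 5 mg/kg or of saline, and were euthanized 24 h later. The 13 arrays comprise 3 saline-pretreated rats challenged with METH (SM, replicates 1, 3 and 4), 4 METH-pretreated rats challenged with saline (MS, 1 to 4), 3 METH-pretreated rats challenged with METH (MM, 1, 2 and 3) and 3 rats given saline both times (SS, 2, 3 and 4). Each array was taken as a separate animal, from which tissue of 1 side of the brain was used, and p-values measure only the spread between these arrays. In such dissected tissue, fewer cells of a type and less RNA per cell cannot be told apart.

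The deposited ratios were converted back to signal units, and each array was scaled by its median ratio, which was 0.770 to 0.952. Of the 9 markers of dopamine neurons listed, En1 had no probe under its symbol. Ddc was at the limit on all 13 arrays, Foxa2 on 2 and the dopamine transporter gene Slc6a3 on 1. Th, the rate-limiting enzyme of dopamine synthesis, averaged 1288 ± 830 units in SM, 1099 ± 1084 in MS, 669 ± 428 in MM and 687 ± 596 in SS (SD). Another marker, Slc18a2, was highest in MM, at 523 ± 131 units beside 442 ± 44.4 in SM, 323 ± 180 in MS and 421 ± 283 in SS (SD). Of the 7 markers tested, 6 were higher and 1 lower in SM than in SS, where 51.6% of all probes were higher. In MM against MS 4 were higher and 3 lower, where 47.3% of all probes were higher. The summed signal of 5 blood genes was 10760 to 12930 units in SM, 14350 to 19380 in MS, 10690 to 19690 in MM and 20360 to 24590 in SS, so that SM and SS did not overlap. Most of this sum was 1 gene, Hbb, at 10570 to 12770 units in SM and 19960 to 24270 in SS. Hba-a2 went the other way, at 18.5 ± 8.2 units in SM and 14.2 ± 0.8 in SS (SD). The summed signal of 7 genes of meninges and choroid plexus was 3238 to 3954 units in SM, 4874 to 5632 in MS, 4066 to 4248 in MM and 4429 to 6237 in SS. Most of it was Igf2, at 2216 to 2874 units in SM and 3233 to 4577 in SS. None of these blood or meningeal genes was at the limit on every array. A group difference was counted as a change at a fold of at least 1.7 with an unadjusted p under 0.05 in limma, the criterion of the study. The meningeal and choroid sums did not overlap between MM and MS, with all 7 genes lower in MM and 0 meeting the criterion. All 3 markers of serotonin neurons were higher in MM than in MS, with a median of 1.19 on the log2 scale. Of these 3, 1 met the criterion, beside 1.32% of all probes. The part of these tissue markers in the results below was not tested.

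Proteasome genes are often described as a coordinately expressed set, and their promoters were available for 31 of the 35 members in the RefSeq rat annotation (GRCr8), as windows of 250 bases before and 50 bases after the gene start. Those of the 3 catalytic beta subunits are shown, since these genes carry out proteolysis. Capitals mark any of 3 short motifs, on either strand: TGACNNNGC (the core of the antioxidant response element), CCAAT (the box bound by NF-Y) and GGGCGG (the GC box). The Psmb5 promoter lies at chr15:32047330-32047629 on the minus strand, that of Psmb6 at chr10:55737638-55737937 on the plus strand and that of Psmb7 at chr3:42827421-42827720 on the minus strand.
Psmb5: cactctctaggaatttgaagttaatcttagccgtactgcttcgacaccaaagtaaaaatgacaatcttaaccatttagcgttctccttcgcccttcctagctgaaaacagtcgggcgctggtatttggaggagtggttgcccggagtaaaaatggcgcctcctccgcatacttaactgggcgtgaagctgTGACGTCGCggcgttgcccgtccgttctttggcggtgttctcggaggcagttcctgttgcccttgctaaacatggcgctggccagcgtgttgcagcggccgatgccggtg
Psmb6: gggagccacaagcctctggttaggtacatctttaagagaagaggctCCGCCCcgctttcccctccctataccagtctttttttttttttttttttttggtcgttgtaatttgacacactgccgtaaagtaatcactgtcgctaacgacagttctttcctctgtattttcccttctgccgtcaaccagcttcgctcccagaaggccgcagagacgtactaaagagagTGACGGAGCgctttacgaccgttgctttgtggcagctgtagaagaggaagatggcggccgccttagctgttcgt
Psmb7: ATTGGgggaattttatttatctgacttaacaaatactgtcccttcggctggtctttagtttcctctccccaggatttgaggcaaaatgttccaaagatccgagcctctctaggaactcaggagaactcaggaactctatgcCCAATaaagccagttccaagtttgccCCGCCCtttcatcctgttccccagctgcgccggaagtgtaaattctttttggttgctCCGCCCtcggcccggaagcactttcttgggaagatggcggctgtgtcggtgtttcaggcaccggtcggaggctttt
Within these windows Psmb5 and Psmb6 each held 1 copy of TGACNNNGC and Psmb7 held none, Psmb7 held 2 copies of CCAAT and of GGGCGG, and Psmb6 held 1 copy of GGGCGG. Over the 31 members, TGACNNNGC was found in 7 (22.6%), against 12.2% of all 27457 promoters of the same length. CCAAT was found in 16 members (51.6%), against 37.7% of all promoters. GGGCGG was found in 22 members (71.0%), against 34.9% of all promoters, and in 12 of the 14 core promoters and 10 of the 17 regulatory ones. A match of letters is a description of the window only.

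Little movement of the proteasome genes was measured after METH challenge, METH pretreatment or both. Apart from the testis subunit Psma8, which was near the limit, none of the 35 genes met the criterion in any comparison of the treatments. In SM against SS, 0 of 35 members met it, in a comparison in which 1.62% of all 17140 probes tested did. In MS against SS it was 0 of 35, beside 1.13% of all probes, and in MM against MS 0 of 35, beside 1.32%. Each of these shares is below 1 in 35, so that counts of 0 are close to the background. At an unadjusted p under 0.05 alone the members numbered 0 in each of these comparisons. Of all probes, 4.36%, 2.62% and 4.39% passed in SM against SS, MS against SS and MM against MS. These shares are not matched for brightness: 23 of the 35 members averaged 2000 units or more, as did 1262 of the 17140 probes. The median SE in SM against SS was 0.11 for members and 0.21 for all probes. The smallest adjusted p (Benjamini-Hochberg, limma) among members was 0.999 in MM against MS and 1 in both other comparisons.

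The intervals show how large a change remained possible. For the 34 members other than Psma8, fold changes lay between -0.38 and 0.17 on the log2 scale in SM against SS, between -0.30 and 0.24 in MS against SS and between -0.18 and 0.32 in MM against MS. The 95% interval of the fold change lay wholly within 1.7-fold in either direction for 32 of the 35 members in each of the 3 comparisons. The members with wider intervals were Psma8, Psmb11 and Psmd5 in MS against SS, the same 3 in SM against SS, and Psma8, Psmc6 and Psmd5 in MM against MS. For the middle one of the 34 members the interval reached 17.5% in fold to either side in SM against SS and 16.2% in MS against SS, as in MM against MS.

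**Figure D1:**
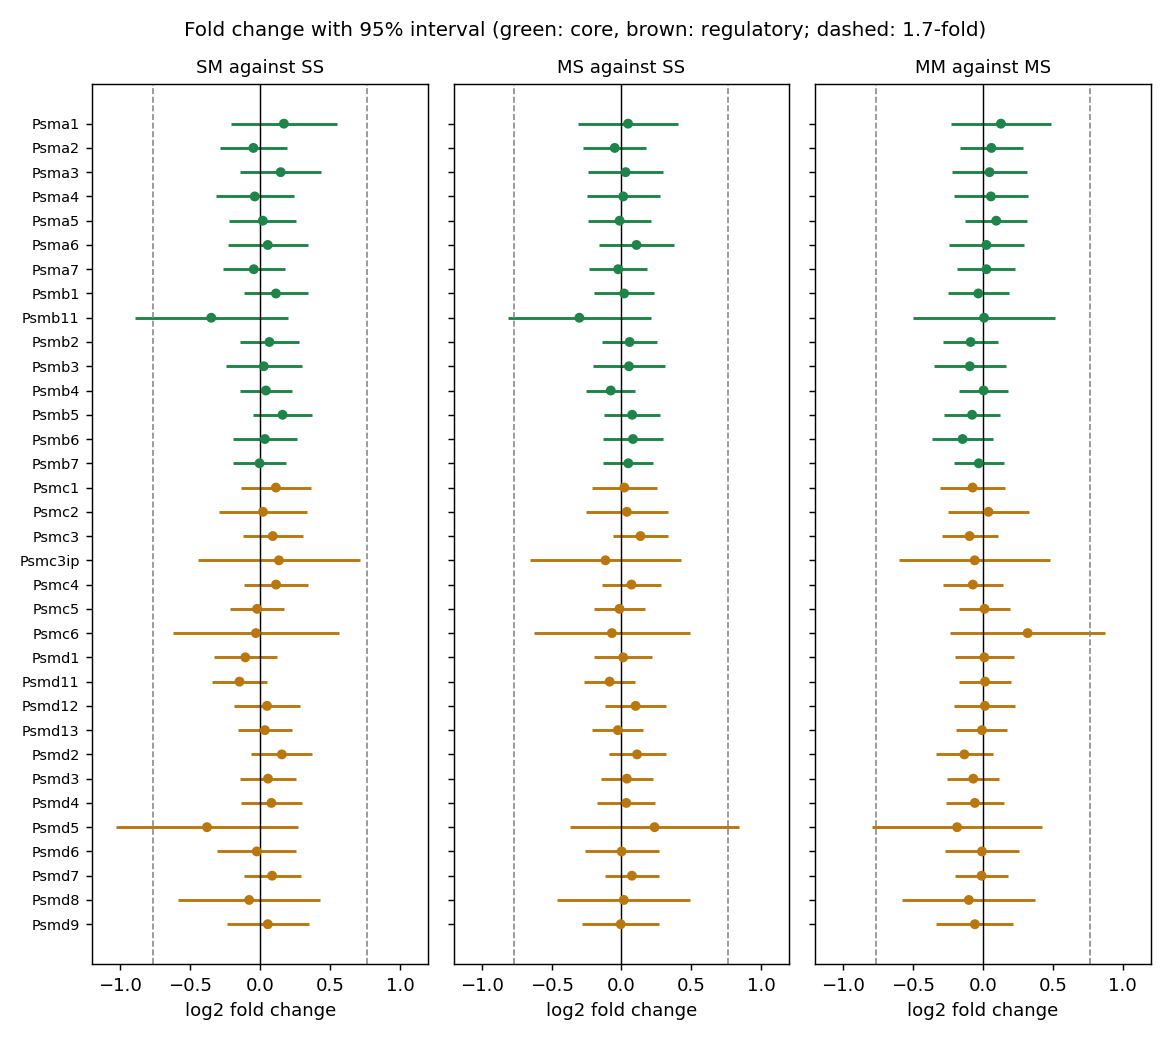
Log2 fold change of 34 proteasome genes (points) with 95% intervals from limma (bars) in SM against SS, MS against SS and MM against MS, with core members above and regulatory members below and dashed lines at 1.7-fold. No interval lies wholly beyond a dashed line, and only Psmb11, Psmd5 and Psmc6 have intervals that reach past one.

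The outer rings of the core are formed by the alpha subunits. Of the 8 Psma genes, 4 were higher and 4 lower in SM than in SS (7 higher on the values as deposited), and 5 were higher and 3 lower in MS than in SS. All 8 had a positive fold change in MM against MS, beside 47.3% of all probes, with a median of 0.06 on the log2 scale and none past the test. Those of Psma1 to Psma7 were 0.03 to 0.13, each smaller than its SE, and that of Psma8, near the limit, was 1.09 ± 1.89 (SE). The ubiquitous Psma1 to Psma7 averaged 65.6 units (Psma3) to 5777 units (Psma7) over all arrays, values that depend on the probe and are not compared between genes. Their spread within groups was 6.76% of the mean for Psma7 and 15.9% for Psma1.

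Psma1 had 403, 289 and 302 units in SM, 285, 326, 265 and 334 in MS, 365, 390 and 252 in MM, and 284, 309 and 282 in SS. The groups overlapped, with 1 SM, 2 MS and 2 MM arrays above every SS array. Averaged over both pretreatments, the challenge effect on Psma1 was 0.15 ± 0.12 on the log2 scale (SE, 95% interval -0.11 to 0.41, adjusted p = 0.935 in limma). Without MM replicate 3 it was 0.25, with an unadjusted p under 0.05 but under 1.7-fold. Psma3 had 67.5, 78.0 and 63.1 units in SM, 63.7, 61.2, 70.3 and 60.7 in MS, 62.8, 78.7 and 58.3 in MM, and 68.2, 59.5 and 60.3 in SS. All 4 groups overlapped, and its challenge effect was 0.10 ± 0.09 (SE, interval -0.10 to 0.29). Psma6 had 1 high MS array, replicate 4, at 4240 units beside 3435, 3533 and 3481. Psma4 was also highest in MS on replicate 4, at 2328 units beside 1760, 1714 and 1906.

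Psma8, the alpha subunit that replaces Psma7 in the testis, was near or at the limit throughout. It had 0.294, 0 and 0 units in SM, 1.14, 14.6, 10.1 and 0 in MS, 7.34, 3.11 and 3.71 in MM, and 1.71, 0 and 0.172 in SS, a value of 0 standing for the limit. Psma8 overlapped between the pretreatments, as SS replicate 2, at 1.71 units, lay above MS replicates 1 and 4. Averaged over both challenges, its pretreatment effect was 3.79 ± 1.39 on the log2 scale (SE, 95% interval 0.76 to 6.81), which met the criterion, with an adjusted p = 0.9995 over all probes in limma. It was the only member of 35 to do so in the average pretreatment effect, where 1.07% of all probes did. The size rests on how values at the limit are treated: as log2 of the signal plus 16 units, the effect was 0.37 ± 0.14 (SE), under 1.7-fold. With a replicate block it was 3.09 ± 1.37 (SE) and did not meet the criterion. Probes averaging 1 to 16 units had a median within-group SD of 1.95 on the log2 scale, against 0.12 for those of 2000 units or more.

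The inner rings hold the catalytic subunits Psmb5, Psmb6 and Psmb7, which cleave after hydrophobic, acidic and basic residues and whose promoters are printed above. Their within-group spread was 4.39% to 7.05% of the mean, and none passed the test in any comparison under the processing used throughout. Psmb5 had 5644, 5484 and 6213 units in SM, 5387, 5609, 5091 and 5722 in MS, 5094, 4958 and 5459 in MM, and 5342, 4789 and 5387 in SS. The SM arrays were the highest as a group and lay above all 3 SS arrays, but overlapped with MS. The difference was 0.16 ± 0.10 on the log2 scale in SM against SS (SE, 95% interval -0.05 to 0.37). The challenge effect in METH-pretreated rats minus that in saline-pretreated rats was -0.24 ± 0.13 (SE, interval -0.53 to 0.06). With no filter on probes, the unadjusted p of Psmb5 in limma was under 0.05 for both. On the signal plus 16 units it was so for the second only (-0.24), and all were under 1.7-fold.

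Psmb6 had 3259, 3382 and 3401 units in SM, 3406, 3503, 3073 and 3915 in MS, 3055, 3126 and 3215 in MM, and 3532, 3214 and 3080 in SS. MM was the lowest group and lay within the range of both MS and SS except for its lowest array. In MM against MS the difference was -0.14 ± 0.10 (SE, interval -0.36 to 0.07). Psmb7 had 3751, 3770 and 4033 units in SM, 4074, 3751, 4039 and 4123 in MS, 3726, 4091 and 3939 in MM, and 3805, 3721 and 4065 in SS. All groups overlapped, and its fold change was between -0.03 and 0.05 on the log2 scale in SM against SS, MS against SS and MM against MS, where the widest interval allowed a change of 1.17-fold.

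The other beta subunits shape the rings without a protease site of their own. Psmb4, which takes part in the assembly of the core, had the smallest spread of any member, 3.42% of its mean. It had 7151, 7790 and 7438 units in SM, 6841, 6826, 6596 and 7238 in MS, 6833, 6788 and 7080 in MM, and 7094, 7446 and 7203 in SS. Of the 7 METH-pretreated rats 6 lay below all saline-pretreated ones, the other being in MS. The average pretreatment effect on Psmb4 was -0.09 ± 0.06 (SE, interval -0.22 to 0.03). With no filter on probes its unadjusted p in limma was under 0.05 (-0.09), but under 1.7-fold. Psmb1, Psmb2 and Psmb3 had fold changes between -0.09 and 0.11 in SM against SS, MS against SS and MM against MS.

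Psmb11, the catalytic subunit of the thymoproteasome, is known from the thymus, and its probe was dim here. It had 15.1, 20.8 and 15.4 units in SM, 17.4, 13.5, 21.7 and 18.3 in MS, 12.0, 19.0 and 23.8 in MM, and 25, 17.8 and 22.5 in SS. The groups overlapped. The fold change was -0.35 ± 0.25 in SM against SS (SE, interval -0.90 to 0.20) and -0.30 ± 0.23 in MS against SS (interval -0.81 to 0.21).

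**Figure D2:**
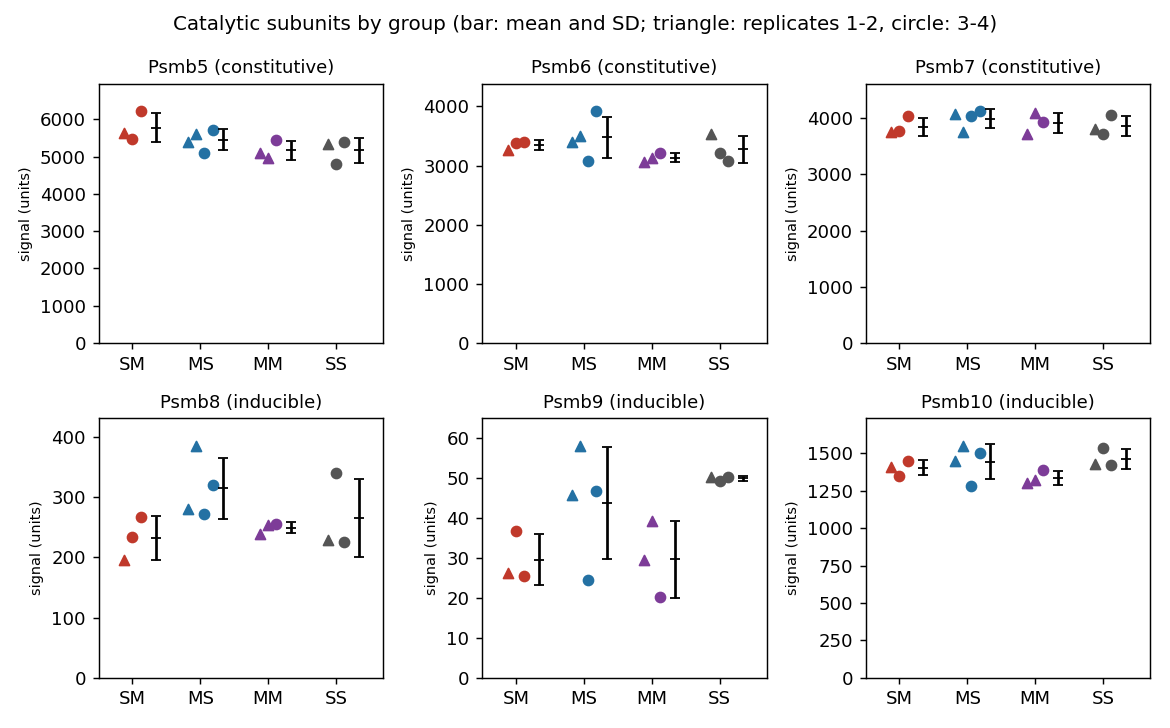
Signal in units on each array for the constitutive catalytic subunits Psmb5, Psmb6 and Psmb7 (upper row) and their inducible counterparts Psmb8, Psmb9 and Psmb10 (lower row), by group, with triangles for replicates 1 and 2, circles for 3 and 4, and mean ± SD beside them. The 3 SM arrays of Psmb9 lie at 25.6 to 36.9 units, below the 3 SS arrays at 49.2 to 50.4 units.

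The inducible subunits replace the catalytic ones in immunoproteasomes, which are made under interferon signalling and shape peptides for antigen presentation. They were set beside the members as part of the same pathway. Psmb9, the counterpart of Psmb6, had 26.2, 36.9 and 25.6 units in SM, 45.8, 58.1, 24.5 and 46.7 in MS, 29.4, 39.4 and 20.2 in MM, and 50.4, 49.2 and 50.4 in SS. Every SM array lay below every SS array, while MM and MS overlapped. Averaged over both pretreatments, the challenge effect on Psmb9 was -0.66 ± 0.21 on the log2 scale (SE, adjusted p = 0.604 in limma), under 1.7-fold. The unadjusted p of this average was under 0.05, as in 25 of 25 other settings, of which 3 met the criterion. Psmb9 fell by 0.78 ± 0.31 on the log2 scale in SM against SS (SE, adjusted p = 1 in limma), and met the criterion. It met it in 18 of 26 other settings, over which the log2 change was -0.95 to -0.54. It did not meet it without SM replicate 1 (-0.70), SM replicate 4 (-0.69), or SS replicate 2 (-0.77), 3 (-0.79) or 4 (-0.77), nor with a replicate block (-0.66), on the values as deposited (-0.72) or on the signal plus 16 units (-0.54). The summed signals of both the blood and the meningeal and choroid genes, given above, did not overlap between SM and SS either, with SM lower. Of the 5 blood genes 4 had lower and 1 higher fold changes in SM against SS, and 3 fell by the criterion. Of the 7 meningeal and choroid genes 6 had lower and 1 higher fold changes, and 1 fell by the criterion. Of all 17140 probes tested, 8300 were lower in SM against SS and 161 fell by the criterion. The part of the blood, meningeal and choroid genes in this result was not tested. Psmb8 had a fold change of -0.18 ± 0.18 (SE) in SM against SS. Psmb10 averaged 1405 ± 50.3 units in SM and 1464 ± 65.2 units in SS (SD, n = 3 each). In MM against MS all 3 inducible genes were lower, with a median of -0.32, where 47.3% of all probes were higher. None of the 3 had an unadjusted p under 0.05 there. Psmb8 covered 240 to 255 units in MM and 272 to 385 in MS, without overlap. The meningeal and choroid sums were lower in MM as well, and their part was not tested.

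In the regulatory particle, the 6 ATPases Psmc1 to Psmc6 form the ring that unfolds substrates. In SM against SS 4 were higher and 2 lower, with fold changes of -0.03 to 0.11 on the log2 scale, in MS against SS 4 were higher and 2 lower, with -0.07 to 0.14, and in MM against MS 3 were higher and 3 lower, with -0.09 to 0.32. Psmc3, an ATPase known to contact ubiquitin chains, had 397, 430 and 455 units in SM, 480, 411, 413 and 460 in MS, 395, 414 and 430 in MM, and 406, 409 and 388 in SS. All MS arrays lay above all SS arrays, by little, and the difference of 0.14 ± 0.09 did not pass (SE, interval -0.06 to 0.34). Psmc6 was the ATPase with the widest scatter, 24.4% of its mean. It had 142, 152 and 133 units in SM, 114, 177, 91.5 and 198 in MS, 136, 217 and 175 in MM, and 118, 166 and 157 in SS. The MS arrays alone spanned nearly its whole range, and the fold change in MM against MS was 0.32 ± 0.26 (SE, interval -0.24 to 0.88).

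Psmd1, Psmd2 and Psmd4 are the non-ATPase subunits of the base, Psmd1 and Psmd2 being large scaffolds and Psmd4 a ubiquitin receptor. Psmd2 had the smallest p of any member in the test of the difference between the challenge effects. It had 2107, 2283 and 2255 units in SM, 2332, 2090, 2117 and 2063 in MS, 1931, 1955 and 1996 in MM, and 2199, 2013 and 1775 in SS. Each MM array lay below each MS array, while SM lay above 2 of the 3 SS arrays and overlapped with the third. The challenge effect was -0.13 ± 0.09 in METH-pretreated rats (MM against MS) and 0.16 ± 0.10 in saline-pretreated rats (SM against SS), both with SE. The difference of these effects was -0.29 ± 0.14 on the log2 scale (SE, 95% interval -0.58 to 0.01, adjusted p = 1 in limma). Over 25 other settings it was -0.36 to -0.20, with an unadjusted p under 0.05 in 5 of them. In this test of the difference 0 of 35 members met the criterion, beside 1.66% of all probes, and 0 had an unadjusted p under 0.05, beside 2.86%.

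The lid subunits measured here were Psmd3, Psmd6, Psmd7, Psmd8, Psmd11, Psmd12 and Psmd13. Fold changes over these 7 genes were -0.15 to 0.09 in SM against SS, -0.08 to 0.10 in MS against SS and -0.10 to 0.02 in MM against MS, with none past the test. Psmd11, a lid subunit that reaches the core ring, had 5283, 5663 and 5384 units in SM, 5663, 5608, 5569 and 5904 in MS, 5741, 5728 and 5780 in MM, and 5515, 6138 and 6473 in SS. SM was the lowest group but overlapped with SS by 1 array. The difference was -0.15 ± 0.09 (SE, interval -0.34 to 0.05). Its unadjusted p in limma was under 0.05 with no filter on probes (-0.15) and without SS replicate 2 (-0.21), both under 1.7-fold.

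Psmd8, whose yeast counterpart is the last subunit to join the lid, did not follow the treatments. It had 48.9, 41.7 and 41.5 units in SM, 56.7, 49.8, 39.1 and 43.7 in MS, 54.3, 54.0 and 28.6 in MM, and 56.1, 40.3 and 44.0 in SS. In every group the arrays numbered 1 and 2 were above those numbered 3 and 4: the first set covered 48.9 to 56.7 units and the second 28.6 to 44.0 units, with no overlap. With group in the model, the difference between the sets was 0.47 ± 0.10 on the log2 scale (SE, adjusted p = 0.0503 in limma). The split by replicate number came from earlier results on these arrays, and the labels do not say what the numbers stand for. It reached an unadjusted p under 0.05 in 15.6% of all probes and in 1 of 35 members, and 3.24% of all probes and 0 members also differed 1.7-fold.

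**Figure D3:**
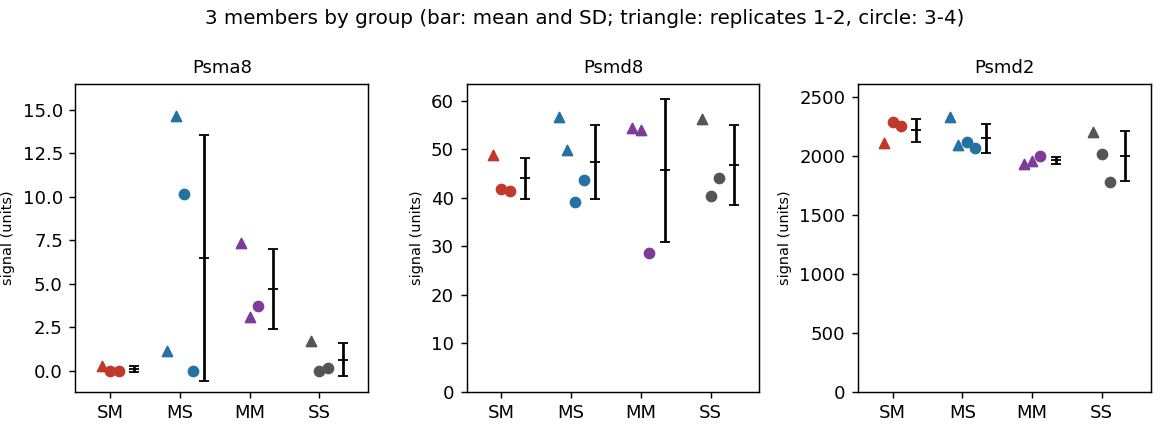
Signal in units on each array by group for Psma8, Psmd8 and Psmd2, with triangles for replicates 1 and 2, circles for 3 and 4, and mean ± SD beside them. Psma8 stays at or below 14.6 units, Psmd8 is higher on every triangle (48.9 units or more) than on every circle (44.0 units or less), and the 3 MM arrays of Psmd2 lie at 1931 to 1996 units.

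The assembly chaperone Psmd5 was as variable as Psmc6, with a within-group spread of 24.4% of the mean. It had 292, 286 and 133 units in SM, 449, 253, 381 and 316 in MS, 296, 336 and 274 in MM, and 367, 240 and 278 in SS. SM replicate 4 lay far below all others, and the groups overlapped. The average challenge effect was -0.28 ± 0.20 (SE, interval -0.73 to 0.16) and the average pretreatment effect 0.34 ± 0.20 (interval -0.11 to 0.78). Both depended on SM replicate 4, without which they were -0.09 ± 0.15 and 0.15 ± 0.15 (SE), and the fold change in SM against SS was -0.01 in place of -0.38. Psmd9, the other chaperone, had group means of 257 ± 29.2 units in SM (SD, n = 3), 246 ± 17.4 in MS (n = 4), 238 ± 36.5 in MM (n = 3) and 247 ± 18.7 in SS (n = 3). Psmc3ip, the recombination protein, averaged 58.9 ± 5.43 units in SM and 53.6 ± 2.74 units in SS (SD, n = 3 each), and its 13 arrays covered 27.8 to 63.0 units.

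Core and regulatory members were also described as particles, with no test of one against the other. In SM against SS the median fold change was 0.03 over the 16 core members and 0.05 over the 19 regulatory members on the log2 scale, beside 0.01 over all probes tested. In MS against SS it was 0.04 for the core and 0.02 for the regulatory particle, beside 0.02 over all probes. In MM against MS it was 0.02 for the core and -0.06 for the regulatory particle, beside -0.01 over all probes, with 10 of 16 core and 6 of 19 regulatory members and 47.3% of all probes higher in MM. This split turned with the scaling: on the values as deposited 13 of 16 core and 15 of 19 regulatory members and 64.2% of all probes were higher in MM, with medians of 0.10 for the core and 0.03 for the regulatory particle, beside 0.07 over all probes. Between arrays of 1 group, with arrays scaled by their median, the median of a particle varied with an SD of 0.05 (core) and 0.06 (regulatory). This was similar to or larger than the medians on that scaling, and it was not computed on the values as deposited.

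Averaged over both pretreatments, 0 of 35 members met the criterion for METH challenge, beside 1.17% of all probes, and 0 had an unadjusted p under 0.05, beside 5.7%. The medians were 0.01 for the core and 0.01 for the regulatory particle, and 20 of 35 members were higher after the challenge. This split depended on the scaling of the arrays. On the values as deposited, with no division by the array median, 32 of 35 members were higher, with medians of 0.08 for both particles, but 65.7% of all probes were higher too, with a median of 0.07. For METH pretreatment averaged over both challenges, 18 of 35 members were higher, the medians were 0.00 for both particles, and Psma8 alone passed an unadjusted p of 0.05, where 3.18% of all probes did.

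**Figure D4:**
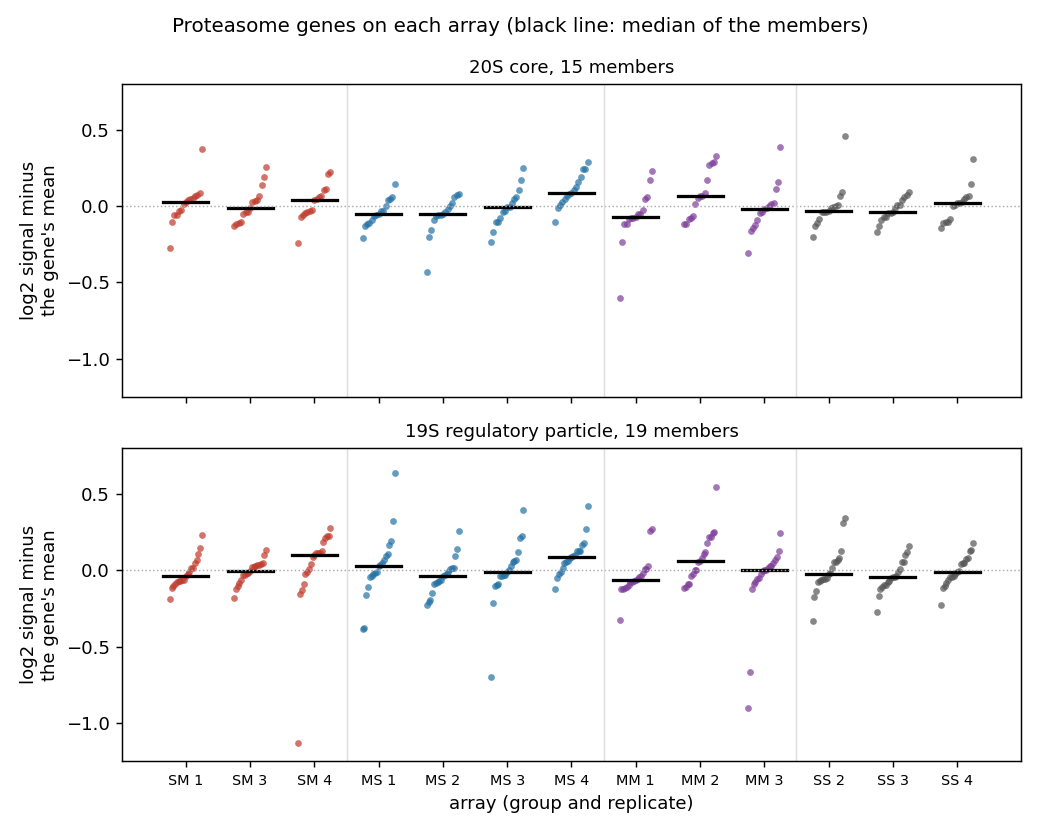
Deviation of the log2 signal of each member from its own mean over the 13 arrays, for 15 core members and 19 regulatory members, with a point per gene and a black line at the median on each array. The medians stay between -0.07 and 0.10, and the arrays of a group differ from each other as much as the groups do.

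The arrays with the highest medians were MS replicate 4, at 0.09 for both the core and the regulatory particle, MM replicate 2, at 0.06 for both, and SM replicate 4, at 0.10 for the regulatory particle. MS replicate 4 had the lowest median ratio of any array, 0.770, and 28 of its 34 members lay above their means. Of 14294 probes above the limit on all arrays, 8758 lay above their means on that array too, with a median of 0.08. Arrays were also scaled by the 7494 probes of at least 100 units, a choice made after seeing the data. The medians of MS replicate 4 were then 0.04 for both particles, beside 0.03 for all probes above the limit on all arrays. MM replicate 1 was the lowest array, with -0.07 for the core and -0.06 for the regulatory particle. Among 34 members, the residuals of gene pairs from their group means had a median correlation of 0.13 over the 13 arrays. Of the 561 pairs, 63.3% were above 0. No such value was computed for pairs of other probes, so these correlations have no background beside them. The genes whose profile was most like the mean of the 15 core members above the limit, outside the set, were Tm2d2 (r = 0.917), Ddx52 (0.911), Hint3 (0.907), Klhl5 (0.893) and Dcaf13 (0.877), over 13 arrays that share the same scaling.

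Beyond the particle itself, 35 other genes of the pathway were listed, covering inducible subunits, activators, assembly factors, ubiquitin receptors and deubiquitinases, ubiquitin, activating enzymes and the p97 segregase, and transcription factors. Of these 22 were tested. Of the rest, Ddi2 was at the limit on all arrays. The others, among them the transcription factor Nfe2l1, had no probe under their symbol in the annotation used. Psmb9 in SM against SS was the only one of the 22 to meet the criterion, 1 of 22 beside 1.62% of all probes, with 0 of 22 in MM against MS, in MS against SS and in the test of the difference. Uba6, an enzyme that activates ubiquitin, averaged 281 ± 55.4 units in MM (SD, n = 3) and 221 ± 30.6 units in MS (SD, n = 4). The difference of 0.34 ± 0.15 was under 1.7-fold (SE, adjusted p = 0.999 in limma). Its unadjusted p was under 0.05, as in 15 of 26 other settings, and without MM replicate 2, at 344 units, the difference was 0.19 ± 0.16, which did not pass.

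Nfe2l2, a factor that binds the antioxidant response element, averaged 492 ± 66.6 units in SM and 434 ± 42.8 units in SS (SD, n = 3 each). It averaged 497 ± 73.8 units in MM (n = 3) and 467 ± 63.4 units in MS (n = 4). Vcp, the p97 segregase that extracts ubiquitinated proteins, averaged 5506 ± 334 units in SM and 5235 ± 123 units in SS (n = 3 each). Usp14, a deubiquitinase bound to the base, averaged 5541 ± 681 units in SM and 5583 ± 362 units in SS (n = 3 each). The proteasome assembly factor Pomp averaged 276 ± 86.9 units in MM (n = 3) and 226 ± 28.1 units in MS (n = 4), with 1 high array, MM replicate 3, at 373 units. None of these 4 genes passed an unadjusted p of 0.05 in SM against SS, MS against SS or MM against MS.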

How the data were processed

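RNA of the SN/VTA was measured on Illumina RatRef-12 arrays. Per the methods, the authors read out the arrays in BeadStudio and processed the values in GeneSpring 7.3.1. The deposited value is a ratio of a probe's signal to that probe's own level across arrays, cut off below at 0.01, so ratios keep no order of levels between genes. At one step the methods call the samples striatal, but the array labels, followed here, give SN/VTA. Signals in units were recovered from the steps between dim values (22523 probes, with 28.2% of values at the limit and set to 0 units).

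For testing, each ratio was divided by its array's median, floored at the quartile of all ratios (the 25th percentile) and log2-transformed. The 17140 probes exceeding this floor on 3 or more arrays entered a limma model (version 3.58.1, in R 4.3.3) with 1 mean per group and a trended prior, and p-values were adjusted over all 17140. Intervals are at 95% with 11.8 degrees of freedom. The number of arrays limits the precision.

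Members and gene lists were chosen with earlier results of these data known. Every array value is given for the 3 members with the smallest p in each comparison, members that met the criterion, the catalytic subunits and members with an array at the limit. Psmd8, Psma6, Psmb9, Uba6, Nfe2l2, Vcp, Usp14 and Pomp were named after their values were seen. The alternatives tried were other scalings, floors and filters, an offset of 16 units, blocks and leaving out arrays. The steps were tested on simulated data.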

Additional observations from a re-analysis of the deposited data

Results flagged for a closer look

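The highest MS array of Psma6, an alpha subunit of the core, was flagged because its gap to the nearest of the other 3 MS arrays, relative to the range of the group, was past Dixon's critical value, at 4240 units. It was MS replicate 4, which also had the lowest median ratio of the 13 arrays. Only MS has enough arrays for this rule, and chance flags about 1 in 20 groups. No member met the criterion in the test of the difference between the challenge effects.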

How the results depend on the processing

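The counts of members that met the criterion and the medians of the core and regulatory particle were recomputed under other scalings, floors, filters, blocks and sets of arrays. The single member that met the criterion in the average pretreatment effect, Psma8, was lost with a count of 0 on the signal plus 16 units and with a replicate block (log2 3.09). With only probes above the floor on all arrays the count was also 0. Psma8, at the limit on 4 arrays, was then not tested, so that count says nothing of its effect. The replicate block changed no other count of members, and outside the set Psmb9 in SM against SS did not meet the criterion with it. The replicate numbers were not taken as a pairing, since 6 of 15 same-numbered pairs had residual correlations over 0.1. The array of closest residuals carried the same number for 7 of 13 arrays, so a link between same-numbered arrays remains possible. On the values as deposited the core and regulatory medians were 0.0883 and 0.107 for the SM and SS arrays compared, 0.103 and 0.0292 in MM against MS, and 0.0804 and 0.0838 in the average challenge effect. Quantile normalization gave a regulatory median of 0.0114 in MM against MS, and a block for the array set gave -0.0988 in the difference of challenge effects. Leaving out 1 array at a time, the count of members in MS against SS was 0 to 1, the 1 being Psma8 without MS replicate 4 (log2 4.13). The core median in MM against MS was -0.0470 (without MM replicate 2) to 0.0391, and the regulatory median of the difference of challenge effects was -0.118 (without MM replicate 2) to -0.00745. Fits to only the groups compared give no value for the averages and the difference. The cause of these shifts was not tested.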
